A study of Homo sapiens with 6 samples.

Results

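The mRNA levels of 9 genes of MHC class I antigen presentation were compared between TPC-1 cells with and without RRM2 overexpression. The members were taken by name from the deposited table of 58735 genes and are HLA-B, HLA-C, HLA-E, HLA-F, B2M, TAP1, TAP2, TAPBP and NLRC5. All 9 were found, and all 9 passed the filter on low values that kept 13621 genes for testing. TPC-1 cells come from a human papillary carcinoma of the thyroid and are an established line, and the first group held 3 libraries of the wild strain. The second group held 3 libraries of RRM2-OE-TPC-1, the same line infected with a lentivirus in which a CMV promoter drives full-length RRM2, the small subunit of ribonucleotide reductase, followed by puromycin selection. No agent other than the vector and its selection was given for either group. The wild strain was not described as carrying an empty vector, so the effects of RRM2, of infection and of puromycin selection cannot be told apart, and whether the overexpressing cells were 1 clone was not given. The genotype label of RRM2-OE-TPC-1 replicates 2 and 3 reads RRM3 and RRM4, whereas their titles give RRM2.

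MHC class I molecules show peptides from inside the cell to CD8 T cells. Each consists of a polymorphic or conserved heavy chain, the light chain beta-2-microglobulin encoded by B2M, and a peptide that proteasomes cut in the cytosol. TAP1 and TAP2 form the transporter that carries peptides into the endoplasmic reticulum, and tapasin, encoded by TAPBP, bridges the transporter to empty heavy chains and edits their peptides. NLRC5 is a nuclear coactivator that works with the RFX complex on class I promoters. Carcinoma cells of many tissues, thyroid among them, are known to lose part of this pathway.

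RRM2 itself was at 9.17, 9.05 and 8.52 FPKM (fragments scaled to the length of the gene and the depth of the library) in TPC-1 and at 50.4, 47.5 and 47.2 FPKM in RRM2-OE-TPC-1, a log2 fold change of 2.43 (SE 0.044, limma adjusted p = 1.11e-08). All 3 libraries with the overexpression label therefore held more RRM2 mRNA than any wild strain library. Libraries held 14317091 to 17084067 reads on genes, and mitochondrial genes took 4.29% to 5.89% of them. Read counts differed between replicates by 1.81 to 5.68 times the sampling variance (chi-square per degree of freedom), so no pair agreed within sampling noise; whether libraries came from separate cultures is not settled by this. RRM2-OE-TPC-1 replicate 1 stood farther from the other 2 of its group (5.02 and 5.68) than those 2 from each other (1.81). The thyroid transcription factors PAX8 and FOXE1 were present at mean FPKM of 69.3 and 4.30 in TPC-1 and of 58.5 and 3.19 in RRM2-OE-TPC-1, and both were called lower (log2 fold changes of -0.24 and -0.42 by limma). The epithelial keratins KRT18 (41.2 and 85.2 FPKM) and KRT8 (2.56 and 3.48 FPKM) were called higher, with log2 fold changes of 1.05 and 0.43, and KRT7 did not pass (-0.21). Another thyroid factor, NKX2-1, was listed at 0 in every library, and TG and TSHR were at or under 0.125 FPKM. None of 15 immune cell markers passed the filter. Of these, 7 were at 0 in all libraries (among them CD3E, CD8A, MS4A1, LYZ, GNLY and FCGR3A), and the summed FPKM of the 15 ranged from 0.818 to 1.06 in TPC-1 and from 0.388 to 0.444 in RRM2-OE-TPC-1. Of 9 markers of endothelium, fibroblasts and smooth muscle, 4 were tested. PECAM1 (0.924 to 0.0588 FPKM) and ACTA2 (0.143 to 2.53 FPKM) had the widest mean differences, and each passed the filter only through its higher group. Their part in the results was not tested.

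The promoters of class I genes carry short elements that are known to bind interferon regulatory factors, NF-kappa B, CREB/ATF proteins and NF-Y. RefSeq promoter windows (GRCh38.p14) matched 7 of the 9 members, and HLA-E and NLRC5 were not in that table. In the sequences, capitals mark matches on either strand to GAAANNGAA or GAANNGAAA (interferon response elements in both spacings), the kappa B motif, CCAAT (the NF-Y box), the core TGACG of the cAMP response element and TTCNNNGAA (a STAT element). Positions count back from the transcription start, with -1 the base before it. HLA-B and HLA-C are shown because their mRNA was lower in RRM2-OE-TPC-1, B2M because no difference passed the test, and TAP2 because its mRNA was higher. Each of these 4 spans positions -250 to -42: HLA-B at chr6:31357221-31357429 (minus strand), HLA-C at chr6:31272134-31272342 (minus strand), B2M at chr15:44711267-44711475 (plus strand) and TAP2 at chr6:32838781-32838989 (minus strand).
HLA-B: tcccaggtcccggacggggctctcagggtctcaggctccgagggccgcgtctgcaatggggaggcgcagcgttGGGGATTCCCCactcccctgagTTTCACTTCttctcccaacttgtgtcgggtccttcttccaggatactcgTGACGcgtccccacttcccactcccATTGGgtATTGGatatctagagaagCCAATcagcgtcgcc
HLA-C: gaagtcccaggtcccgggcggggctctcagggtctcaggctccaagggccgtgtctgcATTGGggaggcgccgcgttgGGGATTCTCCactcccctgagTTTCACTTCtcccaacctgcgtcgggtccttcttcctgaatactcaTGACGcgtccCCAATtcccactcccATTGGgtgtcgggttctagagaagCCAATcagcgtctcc
B2M: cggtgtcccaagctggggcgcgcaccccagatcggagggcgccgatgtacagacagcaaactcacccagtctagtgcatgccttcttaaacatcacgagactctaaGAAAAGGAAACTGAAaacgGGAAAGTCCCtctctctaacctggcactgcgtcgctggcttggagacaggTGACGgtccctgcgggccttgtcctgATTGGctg
TAP2: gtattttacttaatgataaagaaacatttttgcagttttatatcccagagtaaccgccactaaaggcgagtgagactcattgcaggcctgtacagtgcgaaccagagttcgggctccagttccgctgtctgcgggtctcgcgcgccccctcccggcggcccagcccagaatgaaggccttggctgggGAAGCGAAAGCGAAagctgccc

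For TAP1 (chr6:32853816-32853845, minus strand) and TAPBP (chr6:33314079-33314108, minus strand), which moved in opposite directions, 30 bases around the interferon element are given, since longer transcripts of both genes run through their windows. HLA-F (chr6:29723271-29723300, plus strand) is set beside them as a further heavy chain gene.
TAP1: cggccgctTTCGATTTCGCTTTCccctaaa
TAPBP: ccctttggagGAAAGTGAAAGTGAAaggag
HLA-F: cccagagtTTCTCTTTCtctcccaacccgt

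In the whole windows of 250 bases, GAAANNGAA was found in 5 of the 7 members (B2M, HLA-F, TAP1, TAP2 and TAPBP) and in 6.88% of the 35116 windows of the table. The reversed spacing GAANNGAAA, added after the promoters had been read, was found in HLA-B, HLA-C and TAP2 and in 6.56% of all windows. In TAP2 the 2 spacings overlap each other. GAAANNGAA stood in members that were higher (TAP1, TAP2), lower (HLA-F, TAPBP) and without a called difference (B2M). The kappa B motif was found in B2M, HLA-B, HLA-C, TAP1 and TAPBP, against 9.96% of windows. CCAAT stood in B2M, HLA-B, HLA-C, HLA-F and TAP1, against 32.0%. TGACG stood in B2M, HLA-B, HLA-C and TAP2, against 21.2%, and TTCNNNGAA in no member, against 6.57%. In HLA-B and HLA-C the kappa B motif was followed by the reversed spacing, TGACG and CCAAT, with the last CCAAT at -56 to -52 in both, and HLA-C had a further CCAAT at -192 to -188, upstream of its kappa B motif. These matches describe the reference sequence only.

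Of the 9 members, 6 were lower and 2 were higher in RRM2-OE-TPC-1 (limma, called where the adjusted p did not exceed 0.05), and B2M did not pass. The heavy chains HLA-B, HLA-C, HLA-E and HLA-F, the tapasin gene TAPBP and the coactivator gene NLRC5 fell, whereas both transporter genes rose. In this comparison 67.6% of all tested genes were called, 34.9% as higher and 32.7% as lower, so a call alone is common. No member was both called and changed by at least 1 on the log2 scale, against 11.5% of tested genes. The libraries of the groups did not overlap for 8 members, as for 72.2% of tested genes. The median log2 fold change was -0.51 over the members and 0.01 over all tested genes. Members were counted on 168 (HLA-F) to 11083 reads (B2M) per library.

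**Figure D1:**
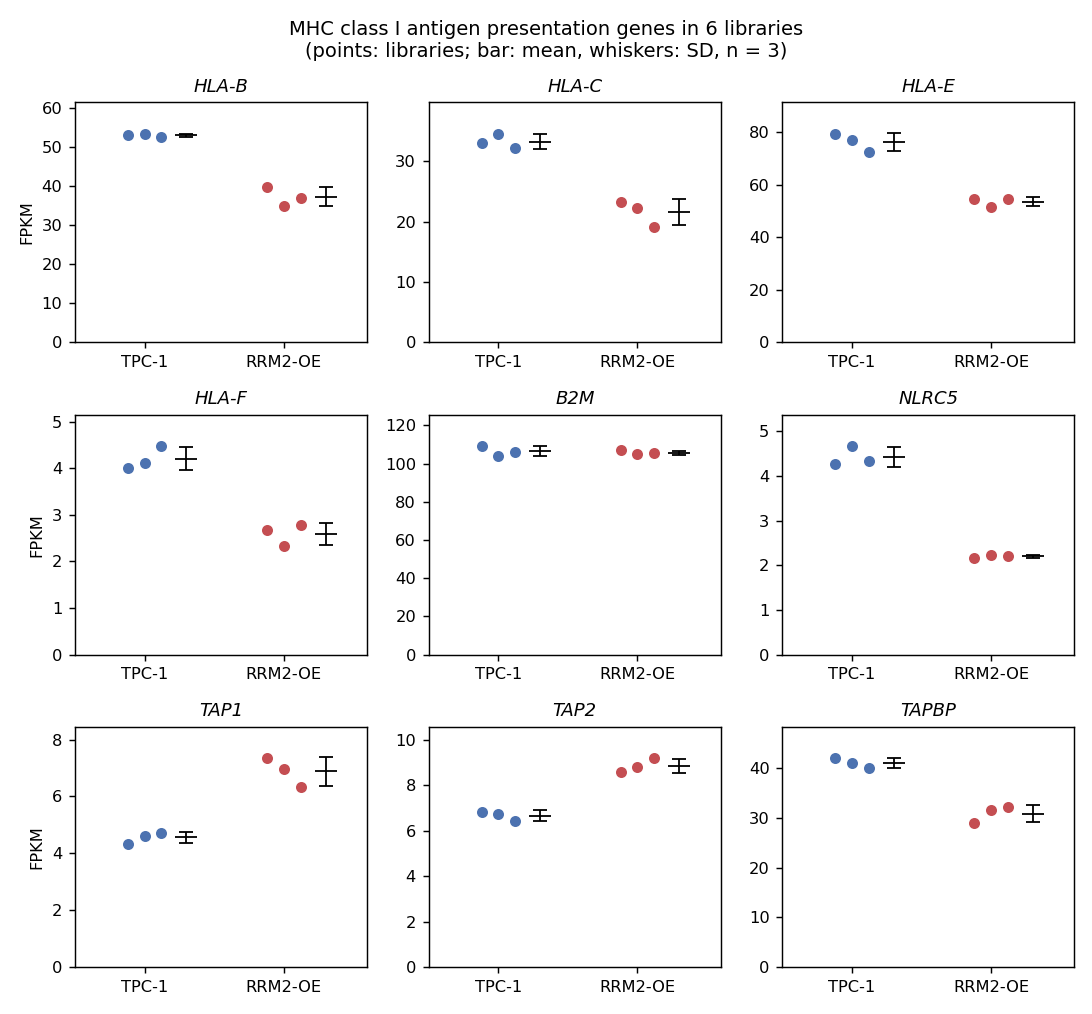
FPKM of the 9 members in each library; the x axis gives the group, points are libraries, and the bar with whiskers is the mean and SD of 3. The 6 libraries overlap for B2M alone, and TAP1 and TAP2 are the 2 genes whose RRM2-OE-TPC-1 points lie above those of TPC-1.

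The classical heavy chains present peptides to CD8 T cells. HLA-B (ENSG00000234745, GRCh38 chromosome 6, 31269491 to 31357188, minus strand) was at 53.0, 53.4 and 52.4 FPKM in TPC-1 and at 39.8, 35.0 and 36.9 FPKM in RRM2-OE-TPC-1. All overexpressing libraries lay below all wild strain libraries, and the latter were within a coefficient of variation of 0.929%. The wild strain mean was 52.9 ± 0.492 FPKM and the overexpressing mean 37.2 ± 2.44 FPKM (SD, n = 3 per group), that is 70.4% of the former. HLA-B had a log2 fold change of -0.51 (SE 0.048, limma adjusted p = 3.39e-05). HLA-C (ENSG00000204525, chromosome 6, 31268749 to 31272130, minus strand) was at 33.1, 34.6 and 32.2 FPKM in TPC-1 and at 23.2, 22.2 and 19.2 FPKM in RRM2-OE-TPC-1. Again the groups did not overlap, and RRM2-OE-TPC-1 replicate 3 was the lowest. HLA-C had a log2 fold change of -0.63 (SE 0.070, limma adjusted p = 8.83e-05), which left 64.8% of the wild strain mean. The 95% intervals of the log2 fold changes of HLA-B (-0.62 to -0.40) and HLA-C (-0.79 to -0.47) overlap, and their difference was not tested.

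HLA-E and HLA-F are heavy chains of low polymorphism, and HLA-E presents leader peptides of other class I chains to the NKG2A receptor of natural killer cells. HLA-E (ENSG00000204592, chromosome 6, 30489467 to 30494205, plus strand) was at 79.4, 77.0 and 72.6 FPKM in TPC-1 and at 54.7, 51.5 and 54.4 FPKM in RRM2-OE-TPC-1. It was the most abundant of the 4 heavy chains in every library, and its groups did not overlap. Group means were 76.3 ± 3.45 and 53.5 ± 1.77 FPKM (SD, n = 3 per group), and the log2 fold change was -0.51 (SE 0.043, limma adjusted p = 1.84e-05). HLA-F (ENSG00000204642, chromosome 6, 29722775 to 29738528, plus strand) was at 4.00, 4.12 and 4.48 FPKM in TPC-1 and at 2.68, 2.33 and 2.78 FPKM in RRM2-OE-TPC-1. This least abundant heavy chain fell to 61.7%, without overlap of the groups. Its log2 fold change was -0.68 (SE 0.088, limma adjusted p = 0.000219), on 168 to 310 reads per library. Although their levels were far apart, the 4 heavy chains all fell to between 61.7% and 70.4% of the wild strain mean.

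Heavy chain genes resemble each other, and the reads of a line's own alleles may align to the reference unequally. In the annotated transcripts, 1.30% of the 75-base words of HLA-C and 1.68% of those of HLA-E were shared with another gene, against 14.2% for HLA-B and 17.7% for HLA-F, overlapping genes included. HLA-B shares 35 exon bases with HLA-C on the same strand and 542 with AL671883.2 on the opposite strand, which was at 0 FPKM. HLA-F lies opposite HLA-F-AS1 for 535 exon bases, at a mean of 0.368 FPKM for that gene. Whether strand was used in counting was not stated, and the part of these overlaps in the values was not tested.

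B2M (ENSG00000166710, chromosome 15, 44711487 to 44718877, plus strand), the light chain of every class I molecule, was the most abundant member. It was at 109, 104 and 106 FPKM in TPC-1 and at 107, 105 and 106 FPKM in RRM2-OE-TPC-1. The groups overlapped throughout, with coefficients of variation of 2.52% and 0.988%. The log2 fold change was -0.01 with a 95% interval of -0.08 to 0.06 (SE 0.032, limma adjusted p = 0.814), on 9389 to 11083 reads per library. None of its 75-base words was shared with another gene.

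The balance of light to heavy chain mRNA was then taken within each library, which is free of the scaling between libraries. Summed FPKM of the 4 heavy chains among the members (no other heavy chain was included) was 169, 169 and 162 in TPC-1 and 120.5, 111 and 113 in RRM2-OE-TPC-1, a fall to 68.9% of the wild strain mean. The log2 ratio of B2M to this sum was -0.63, -0.70 and -0.61 in TPC-1 and -0.17, -0.08 and -0.10 in RRM2-OE-TPC-1. Every overexpressing library thus had more B2M mRNA relative to heavy chain mRNA than any wild strain library. In FPKM the sum exceeded B2M in all 6. FPKM divides by gene length, which was 6079 bases for B2M and 2507 (HLA-C) to 4342 (HLA-F) for the heavy chains. The sign of the ratio depends on these lengths, so it does not settle which mRNA was more abundant within a library. The mean log2 ratio was higher by 0.53 (two-sided exact permutation test p = 0.1, the smallest that 3 against 3 libraries allow). Against HLA-B and HLA-C alone the ratio was higher by 0.54 (exact permutation p = 0.1).

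**Figure D2:**
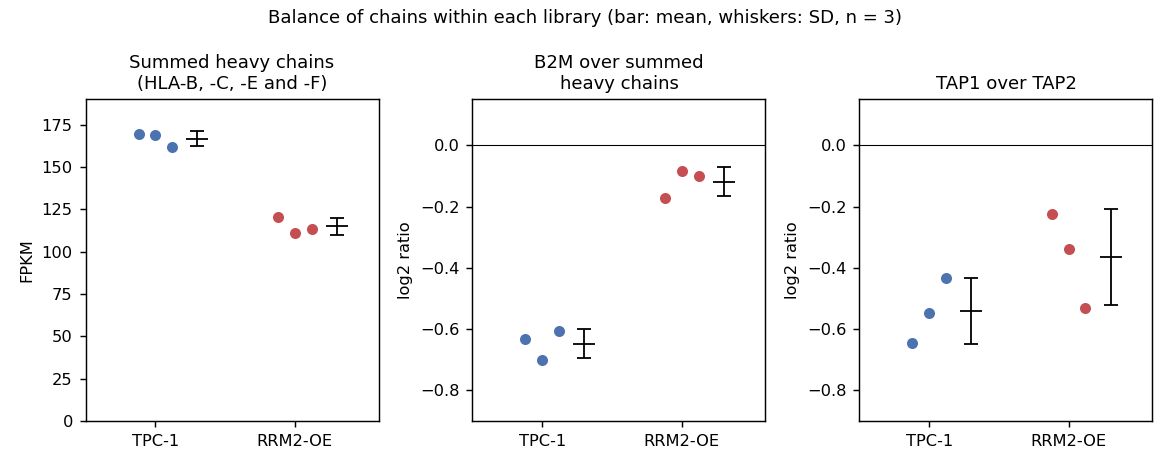
Summed heavy chain FPKM (left), log2 ratio of B2M to that sum (middle) and log2 ratio of TAP1 to TAP2 (right) by group; points are libraries, and the bar with whiskers is the mean and SD of 3. The groups separate in the first 2 panels and overlap in the third.

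TAP1 and TAP2 encode the 2 chains of the peptide transporter and lie close together in the class II region of chromosome 6, with PSMB8 (32840717 to 32844703) between them. TAP1 (ENSG00000168394, 32845209 to 32853978, minus strand) was at 4.34, 4.59 and 4.73 FPKM in TPC-1 and at 7.34, 6.95 and 6.34 FPKM in RRM2-OE-TPC-1. Its groups did not overlap. The mean went from 4.55 ± 0.197 to 6.88 ± 0.508 FPKM (SD, n = 3 per group), that is 151% of the former. The log2 fold change of TAP1 was 0.58 (SE 0.070, limma adjusted p = 0.000133). TAP2 (ENSG00000204267, 32821833 to 32838780, minus strand) was at 6.85, 6.76 and 6.41 FPKM in TPC-1 and at 8.60, 8.81 and 9.20 FPKM in RRM2-OE-TPC-1. Its groups did not overlap either, and the mean rose to 133%. The log2 fold change was 0.41 (SE 0.051, limma adjusted p = 0.000176). The log2 ratio of TAP1 to TAP2 was -0.65, -0.55 and -0.43 in TPC-1 and -0.22, -0.34 and -0.53 in RRM2-OE-TPC-1. These ratios overlapped between the groups, with a mean difference of 0.18 (two-sided exact permutation p = 0.2, where 0.1 is the smallest possible). The difference was 0.11 without RRM2-OE-TPC-1 replicate 1 and at most 0.26 with any other library left out. TAP2 shares 2064 exon bases (32.3%) with AL669918.1 on the same strand, which was at a mean of 0.00426 FPKM, and TAP1 lies opposite PSMB8-AS1 for 456 bases, at 0.415 FPKM for that gene.

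TAPBP (ENSG00000231925, 33299694 to 33314387, minus strand), whose product tapasin holds the heavy chain at the transporter, moved opposite to TAP1 and TAP2. It was at 42.0, 41.0 and 40.1 FPKM in TPC-1 and at 28.96, 31.6 and 32.1 FPKM in RRM2-OE-TPC-1. The groups did not overlap, and the mean fell from 41.0 ± 0.971 to 30.9 ± 1.70 FPKM (SD, n = 3 per group), or to 75.3%. Its log2 fold change was -0.41 (SE 0.046, limma adjusted p = 8.86e-05).

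NLRC5 (ENSG00000140853, chromosome 16, 56989485 to 57083531, plus strand) had the lowest log2 fold change of the 9. It was at 4.27, 4.67 and 4.33 FPKM in TPC-1 and at 2.17, 2.24 and 2.21 FPKM in RRM2-OE-TPC-1. The overexpressing libraries lay close together, at 49.8% of the wild strain mean. The log2 fold change was -0.97 with a 95% interval of -1.13 to -0.81 (SE 0.070, limma adjusted p = 7.45e-06), and 7.64% of tested genes had a lower one. It is the only member off chromosome 6 that was called, and neither shared words nor overlapping exons were found for it.

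The order of the FPKM levels in TPC-1 was B2M, HLA-E, HLA-B, TAPBP, HLA-C, TAP2, TAP1, NLRC5 and HLA-F. Neighbours down to TAP1 did not overlap, whereas TAP1 with NLRC5 and NLRC5 with HLA-F did. In RRM2-OE-TPC-1 the first 7 kept this order, and HLA-F (2.59 ± 0.236 FPKM) stood above NLRC5 (2.21 ± 0.0359 FPKM) with no neighbours overlapping.

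The wider lists around the members take in class II genes, interferon signalling, class I-like chains and other partners. Of their 94 genes, 71 were tested, with 27 higher, 29 lower and 15 not past the threshold. The shares over all tested genes were 34.9% higher and 32.7% lower. The median log2 fold change was 0.01 over the tested genes of these lists. Peptide loading and trimming partners were mostly higher, 10 of 15, with 3 lower and 2 not past, and a median of 0.33. Calreticulin (CALR), the lectin chaperone of the loading complex, was at 162 ± 2.79 FPKM in TPC-1 and at 362 ± 6.83 FPKM in RRM2-OE-TPC-1. That was the one change past 2-fold in this list, with a log2 fold change of 1.16 (SE 0.034, limma adjusted p = 9.74e-08). Calnexin (CANX), which binds newly made heavy chains, had a log2 fold change of 0.59, and PDIA3, the disulfide isomerase bound to tapasin, one of 0.51. BCAP31, a membrane protein of export from the endoplasmic reticulum, had one of 0.71. So the loading complex held both directions, with TAPBP lower and CALR, PDIA3, TAP1 and TAP2 higher. The trimming enzyme ERAP2 was higher by 0.25 on the log2 scale, while ERAP1 (0.03, limma adjusted p = 0.675) and the tapasin relative TAPBPL (-0.14, limma adjusted p = 0.268) did not pass. HSPA5, the chaperone BiP, and GANAB, a glucosidase subunit that prepares glycans for calnexin, were called lower, with log2 fold changes of -0.12 and -0.15, and the call of HSPA5 was lost under several alternatives.

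Proteasome subunits split by type. The constitutive catalytic subunits PSMB5, PSMB6 and PSMB7 were all higher, with log2 fold changes of 0.54, 0.58 and 0.39. The interferon-inducible counterparts PSMB8 (-0.48, 20.9 ± 1.17 to 15.0 ± 0.380 FPKM, n = 3 each) and PSMB9 (-0.54, 1.51 ± 0.256 to 1.01 ± 0.120 FPKM, n = 3 each) were called lower, though PSMB9 lost its call without TPC-1 replicate 1 (limma adjusted p = 0.052) or replicate 3 (limma adjusted p = 0.056). PSMB10 was at 4.54 ± 0.327 and 3.73 ± 0.585 FPKM and did not pass (log2 fold change -0.29, limma adjusted p = 0.060). PSME1 and PSME2 encode the 2 subunits of the cytosolic activator PA28, and they moved apart, with log2 fold changes of -0.50 and 0.28. PSME3, the nuclear activator, was higher by 0.69 on the log2 scale.

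**Figure D3:**
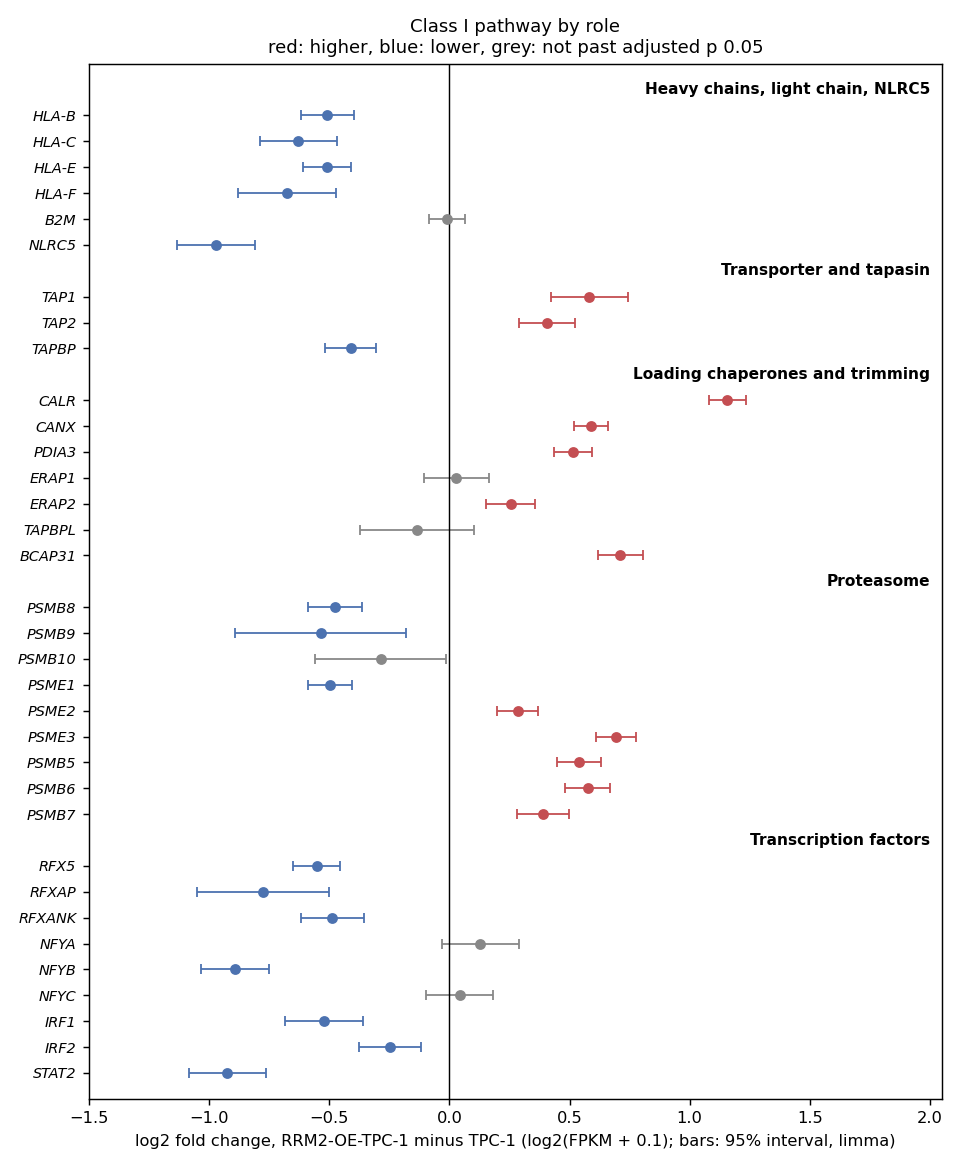
Log2 fold change of RRM2-OE-TPC-1 minus TPC-1 on log2(FPKM + 0.1) for members and partner genes grouped by role; points are limma estimates and bars 95% intervals. Heavy chains, NLRC5, the RFX genes and the inducible PSMB8 and PSMB9 lie left of 0, and the transporter, CALR, CANX and the constitutive catalytic subunits lie right of it.

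Of 18 transcription factors that act on class I promoters, 12 were lower, 2 were higher and 4 did not pass, with a median log2 fold change of -0.34. Over all tested genes, 32.7% were lower and 34.9% higher. All 3 subunits of the RFX complex were lower: RFX5 at 28.4 ± 0.993 and 19.3 ± 0.711 FPKM (SD, n = 3 each; -0.55), RFXAP at -0.78 and RFXANK at -0.49 on the log2 scale. Of the NF-Y subunits that bind CCAAT, NFYB was lower (-0.89, limma adjusted p = 5.48e-06), whereas NFYA (0.13, limma adjusted p = 0.135) and NFYC (0.04, limma adjusted p = 0.554) did not pass. The interferon response factor genes of the list (IRF1, IRF2, IRF3, IRF7 and IRF9) were all called lower. IRF1 was at 3.45 ± 0.134 and 2.37 ± 0.0397 FPKM (SD, n = 3 per group). IRF9, counted among the 12, passed the filter only through the TPC-1 libraries (limma adjusted p = 0.033). Its RRM2-OE-TPC-1 replicates 1 and 3 were at 0.292 and 0.347 FPKM. STAT2, which acts in the type I interferon response, was lower, at 10.5 ± 0.786 and 5.47 ± 0.304 FPKM (SD, n = 3 per group), with a log2 fold change of -0.92. STAT3 was higher by 0.14, and by 0.09 with libraries scaled to equal totals, where it did not pass (limma adjusted p = 0.070). The NF-kappa B genes NFKB1 (0.01, limma adjusted p = 0.813) and RELA (0.14, limma adjusted p = 0.080) did not pass.

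Of 13 interferon receptors, kinases and their inhibitors, 10 were tested, with 2 higher, 4 lower and 4 not past. All tested genes gave 34.9% higher and 32.7% lower. Both chains of the interferon gamma receptor were lower, IFNGR1 with a log2 fold change of -0.43 and IFNGR2 with one of -0.53. The kinase JAK1, which serves that receptor, was higher by 0.63 on the log2 scale, whereas JAK2, its partner there, was lower (-0.36, limma adjusted p = 0.025). The inhibitor SOCS3 was lower (-0.65). Other class I-like chains gave 3 higher and 4 lower of 8 tested out of 15. ULBP1, a ligand of the activating receptor NKG2D, was at 6.30 ± 0.226 and 1.67 ± 0.116 FPKM (SD, n = 3 per group). Its log2 fold change was -1.86 (SE 0.077, limma adjusted p = 4.54e-07). The NKG2D ligands ULBP3 and MICA were higher, with log2 fold changes of 1.18 and 0.78, and ULBP2 did not pass (0.35, limma adjusted p = 0.080). Of chains that do not present peptides, FCGRT, the heavy chain of the neonatal Fc receptor, was lower (-0.98), and PROCR, the endothelial protein C receptor, was higher (0.95). FCGRT, HFE (-0.69) and MR1 (-0.79), whose products pair with the B2M light chain, were all lower.

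On chromosome 6, where 7 of the members lie, the stretch from HLA-F to TAPBP (3.59 Mb, 29722775 to 33314387) held 90 tested genes. Of these, 25 were higher (27.8%) and 42 were lower (46.7%), with a median log2 fold change of -0.18. Without the members and the class II list, 22 of 82 were higher and 37 lower, with a median of -0.15. On the rest of chromosome 6, 186 of 579 were higher and 195 lower, with a median of -0.003. Genes of both directions stood next to each other along the stretch, from -1.80 to 1.93. Of its 90 genes, 26 (28.9%, HLA-B included) had a log2 fold change at or below that of HLA-B, against 19.3% of all tested genes. No test of this difference was made, since neighbouring genes are not replicates.

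**Figure D4:**
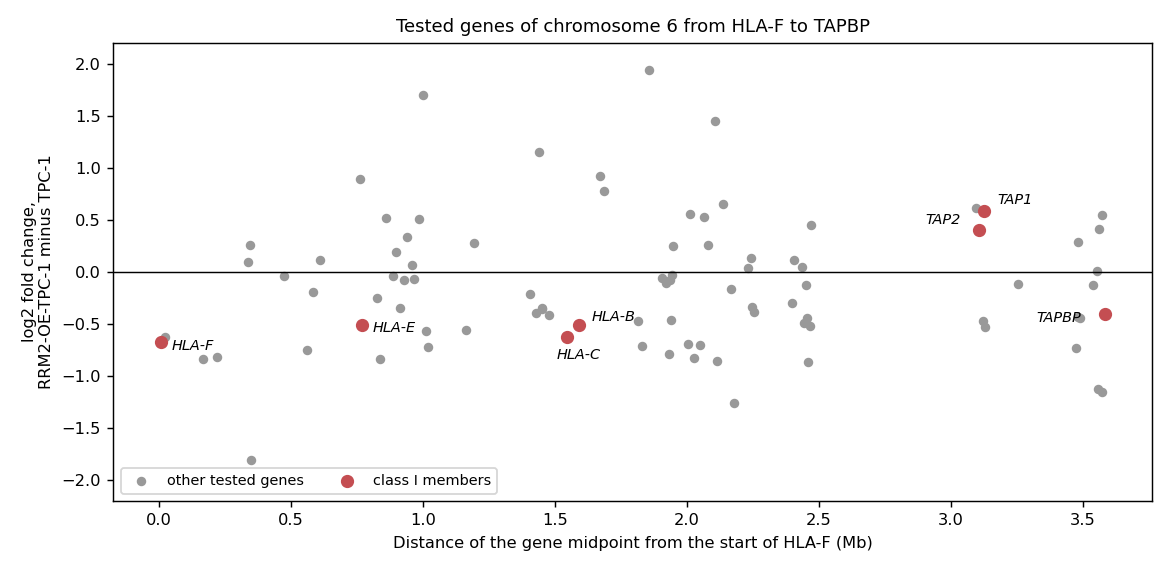
Log2 fold change of each tested gene from HLA-F to TAPBP on chromosome 6 (y axis) against the distance of its midpoint from the start of HLA-F in Mb (x axis), members in red. TAP1 and TAP2 lie above 0 at 3.1 Mb among genes of both directions, and the 4 heavy chains lie between -0.68 and -0.51.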

How the data were processed

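Poly(A) RNA sequencing of 3 TPC-1 and 3 RRM2-OE-TPC-1 libraries, described as biological triplicates, was analysed; the labels instead describe ribosomal RNA removal and RNase R digestion. The authors used fastp for trimming, HISAT2 (2.0.5) for alignment and featureCounts (1.5.0) for counting per gene, and deposited FPKM. The build in the submitters' notes is GRCh38.p14 and the annotation was not given in the sources used here, but all 58735 identifiers and positions were those of GENCODE 29. All values gave whole reads (tolerance 0.01) when gene length and library depth were taken into account.

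The deposited FPKM were tested as log2(FPKM + 0.1) with limma 3.58.1 (lmFit, eBayes with trend, R 4.3.3), with Benjamini-Hochberg adjustment over the 13621 genes with at least 0.5 FPKM and at least 10 reads in at least 3 libraries. Fold changes are on that scale, which understates changes of low genes. A gene was called at an adjusted p of 0.05 or less, the threshold in the study's sequencing methods. The study's volcano plot of differential genes also required an absolute log2 fold change above 1. Ratios within libraries were compared by exact permutation (numpy 2.4.6, Python 3.11.15), and read counts of replicates by chi-square (scipy 1.17.1).

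The members and lists were chosen with earlier results of these data known. Named genes are the members, RRM2 and, from each list, genes past 2-fold, the 3 highest in mean FPKM and the 3 largest log2 fold changes. Other list genes named complete a complex or gene family and were chosen after their values were seen. A few list genes are not reported here. Alternatives were pseudocounts of 1 and 0.01, other filters, other scalings, no variance trend, voom on recovered reads, a 2-fold threshold, the replicate number as a block, and each library left out. Fewer cells and less RNA per cell cannot be told apart in bulk samples.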

Additional observations from a re-analysis of the deposited data

How the results depend on the processing

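The members' counts of 2 higher and 6 lower genes were the same under every alternative except an absolute log2 fold change of 1 added to the adjusted p, where 0 members were higher and 0 lower. Under that threshold 3 genes of the wider lists were higher and 1 was lower, since fewer genes reach that size. When single libraries were left out, the members' counts stayed at 2 and 6, and the wider lists gave 26 to 29 higher and 23 to 27 lower genes. Without TPC-1 replicate 1 the log2 fold change of B2M turned from -0.009 to 0.00996 (adjusted p = 0.805 by limma). Over the libraries left out it ranged from -0.0261 to 0.00996, and over all alternatives its adjusted p ranged from 0.080 to 0.958. The log2 fold change of NLRC5 ranged from -1.03 to -0.76, the latter with a pseudocount of 1. Scaling to library totals moved the median of all genes from 0.01 to -0.05.

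The replicate numbers did not pair the libraries: deviations of same-numbered libraries correlated at -0.011, -0.006 and -0.055. With the replicate number as a block, 8934 genes passed against 9207, 2 members were higher and 6 lower, and the wider lists gave 26 higher and 28 lower. Of 34 named partner genes, 30 kept their call under every alternative fitted to the log2 fold change, and HSPA5, PSMB9, STAT3 and HLA-DOB lost theirs under 1 or more. HSPA5 did not pass without TPC-1 replicate 1 or 3 or RRM2-OE-TPC-1 replicate 2 or 3 (limma adjusted p of 0.099, 0.087, 0.141 and 0.083). HLA-DOB did not pass without TPC-1 replicate 1 or 3 or any 1 library of RRM2-OE-TPC-1 (limma adjusted p of 0.056 to 0.139).

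Depth limits HLA-F, at 168 reads in its lowest library, more than B2M, at 9389. An empty vector group was not analysed here, protein was not measured in these files, and replicates measure the spread between libraries of 1 cell line.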

Other observations

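The class II pathway, which presents extracellular peptides on professional antigen-presenting cells, was almost silent in both groups. Of 13 genes, 8 were at 0 FPKM in all 6 libraries, among them HLA-DRA and HLA-DRB1, and the master coactivator CIITA had means of 0.0771 and 0.0973 FPKM. Of these 13 genes, HLA-DOB alone was tested, at 0.370 ± 0.114 FPKM in TPC-1 and 0.612 ± 0.125 FPKM after overexpression (SD, n = 3 per group). The difference of 0.61 on the log2 scale was called (limma adjusted p = 0.045), but the adjusted p ranged from 0.017 to 0.175 over the alternatives. HLA-DOB also passed the filter only through the overexpressing libraries, since TPC-1 replicates 1 and 3 were at 0.298 and 0.312 FPKM.

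Genes listed for the turnover of class I molecules moved both ways, with 4 higher, 3 lower and 3 not past among 10 tested. The shares over all tested genes were 34.9% higher and 32.7% lower. The membrane ubiquitin ligase MARCH4 was at 0.513 ± 0.191 FPKM in TPC-1 and at 10.7 ± 0.143 FPKM in the overexpressing cells (SD, n = 3 per group). MARCH4 passed the filter only through the overexpressing libraries, as TPC-1 replicates 2 and 3 were at 0.361 and 0.452 FPKM. The log2 fold change was 4.18 (SE 0.192), and it ranged from 2.95 to 4.42 over the alternatives. Its relative MARCH9 was lower, with a log2 fold change of -0.70, and MARCH8 did not pass (-0.06, limma adjusted p = 0.366). SUSD6 and TMEM127, which form a complex that is known to send class I molecules to lysosomes, were higher by 0.53 and 0.30 on the log2 scale, and WWP2, the ubiquitin ligase of that complex, did not pass (-0.04, limma adjusted p = 0.613). UBE2J1, a ubiquitin-conjugating enzyme of endoplasmic reticulum degradation, was higher by 0.44, and HM13, the signal peptide peptidase, was lower (-0.25).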
